A study of Homo sapiens with 3 samples.

Results

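Genes of the endoplasmic reticulum (ER) entry and exit machinery were examined in H9 cells: the signal recognition particle (SRP) and its receptor, the SEC61 translocon, the translocon-associated TRAP complex, signal peptidase, the COPII and COPI vesicle coats, the SEC22 proteins and the TMED cargo receptors. Members were chosen by a rule on gene symbols, with earlier results of these data known. Of the 18417 genes named on the array, 58 carried a matching symbol, on 60 probe sets. SEC61G, COPG2 and TMED7 were not analysed here. No probe set lists SEC61G, and COPG2 and TMED7 each share a probe set with further genes. H9 is an established human embryonic stem cell line, and all 3 RNA samples came from cells kept pluripotent, with no treatment or genetic change named in the labels. They were the RNA bound to polysomes, the RNA free of polysomes (unbound) and total RNA, each on 1 array, so that no difference below has a replicate check and none has a p-value.

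Proteins bound for secretion or for a membrane begin synthesis on cytosolic ribosomes. SRP binds the signal sequence as it leaves the ribosome and brings the ribosome to its receptor on the ER, where the chain is threaded through SEC61 and signal peptidase removes the signal. Finished cargo leaves the ER in COPII vesicles, COPI vesicles return material from the Golgi, and TMED proteins help to load cargo into both. An mRNA that is being translated by several ribosomes travels with the polysomes, and one that is stored or idle is found in the unbound pool.

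The deposited values are log2 expression values, in which 1 unit is 2-fold. Background was set by 481 genes of other tissues, such as odorant and taste receptors, defensins and proteins of the hair shaft. Their 95th percentile was 4.39 in bound RNA, 3.56 in unbound RNA and 3.75 in total RNA. Of the 58 members, 56, 55 and 54 exceeded it on the bound, unbound and total RNA arrays. A gene entered the comparisons when its mean over the 3 arrays exceeded 3.84, the same percentile for that mean. This left 12064 genes, 55 of them members, and SRP19, SEC16B and TMED6 stayed below. Of 13 pluripotency markers, 12 exceeded background in total RNA, led by LIN28A at 11.10, against 1 of 7 markers of specialised secretory cells, the immunoglobulin light chain gene IGKC. Markers of fibroblasts or feeder cells (7 of 9, led by COL1A2 at 10.11), of trophoblast and amnion (6 of 8) and of the germ layers (10 of 12) were also above background.

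**Figure D1:**
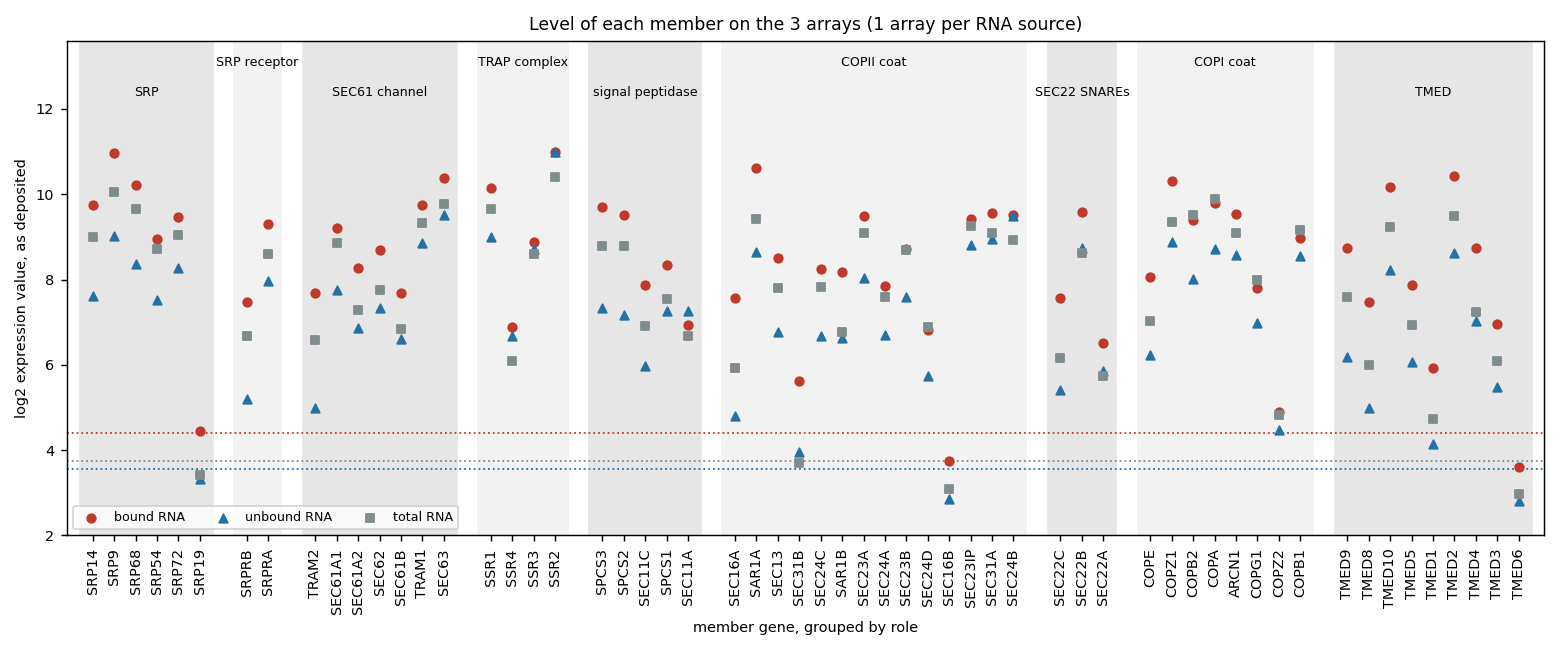
Log2 expression value (vertical axis, as deposited) of each of the 58 members, grouped by role, in bound RNA (circles), unbound RNA (triangles) and total RNA (squares), 1 array each; dotted lines are the background levels of the 3 arrays in the same colours. For most members the bound value is the highest and the unbound value the lowest, whereas SSR2, SSR3, SSR4, SEC24B and SEC11A have bound and unbound values close together or, for SEC11A, in the opposite order.

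The bound array was brighter for most genes as deposited. All bound values end in the same 2 decimals, as if a constant had been added, and differences as deposited would include it. Over the 12064 genes the bound median lay 1.26 above that of the unbound array and 1.03 above that of total RNA, and the unbound median lay 0.23 below total RNA (offset -0.23). A relative difference, used below unless "as deposited" is written, is the log2 difference minus this offset. A relative bound minus unbound value between -1.26 and 0 is therefore positive as deposited, whereas the distance between the values of 2 genes is the same on both scales. The arrays were also scaled by removing the trend with level (lowess) and by quantile normalization. Under 1 or both of these the sign of the relative difference turned for 4 of the 55 members in bound minus unbound RNA (SSR1, COPA, SEC63 and SRP72), for 17 in bound minus total and for 7 in unbound minus total. The largest relative differences so turned were 0.38, 0.53 and 0.30 in size.

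Bound against unbound RNA asks which transcripts sit on polysomes. As deposited, the bound value was the higher one for 54 of the 55 members, by at least 2-fold for 40 of them (72.7% of members, against 61.4% of all genes), while none was 2-fold lower (1.56% of all genes). In relative terms the members spread to both sides around a median of 0.15, against -0.07 for all genes. At least 2-fold higher were 7 members (12.7%, against 6.33% of all genes): SEC16A, TRAM2, TMED9, TMED8, SPCS3, SPCS2 and SRPRB. At least 2-fold lower were 5 members (9.09%, against 9.92% of all genes): SEC11A, SSR2, SEC24B, SSR3 and SSR4. The share on the low side is thus near that of all genes, and with 1 array per source neither share was tested. The SD of the relative difference was 0.72 across the members and 0.80 across all genes. Of the 7 higher members, 6 were also at least 2-fold higher under each of the other 3 scalings, SRPRB with 0.95 after lowess being the exception. Among all genes 6.37% were higher after lowess and 10.7% after quantile normalization. Of the 5 lower members, 4 were so after lowess and 1, SEC11A, after quantile normalization, against 9.33% and 7.26% of all genes.

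**Figure D2:**
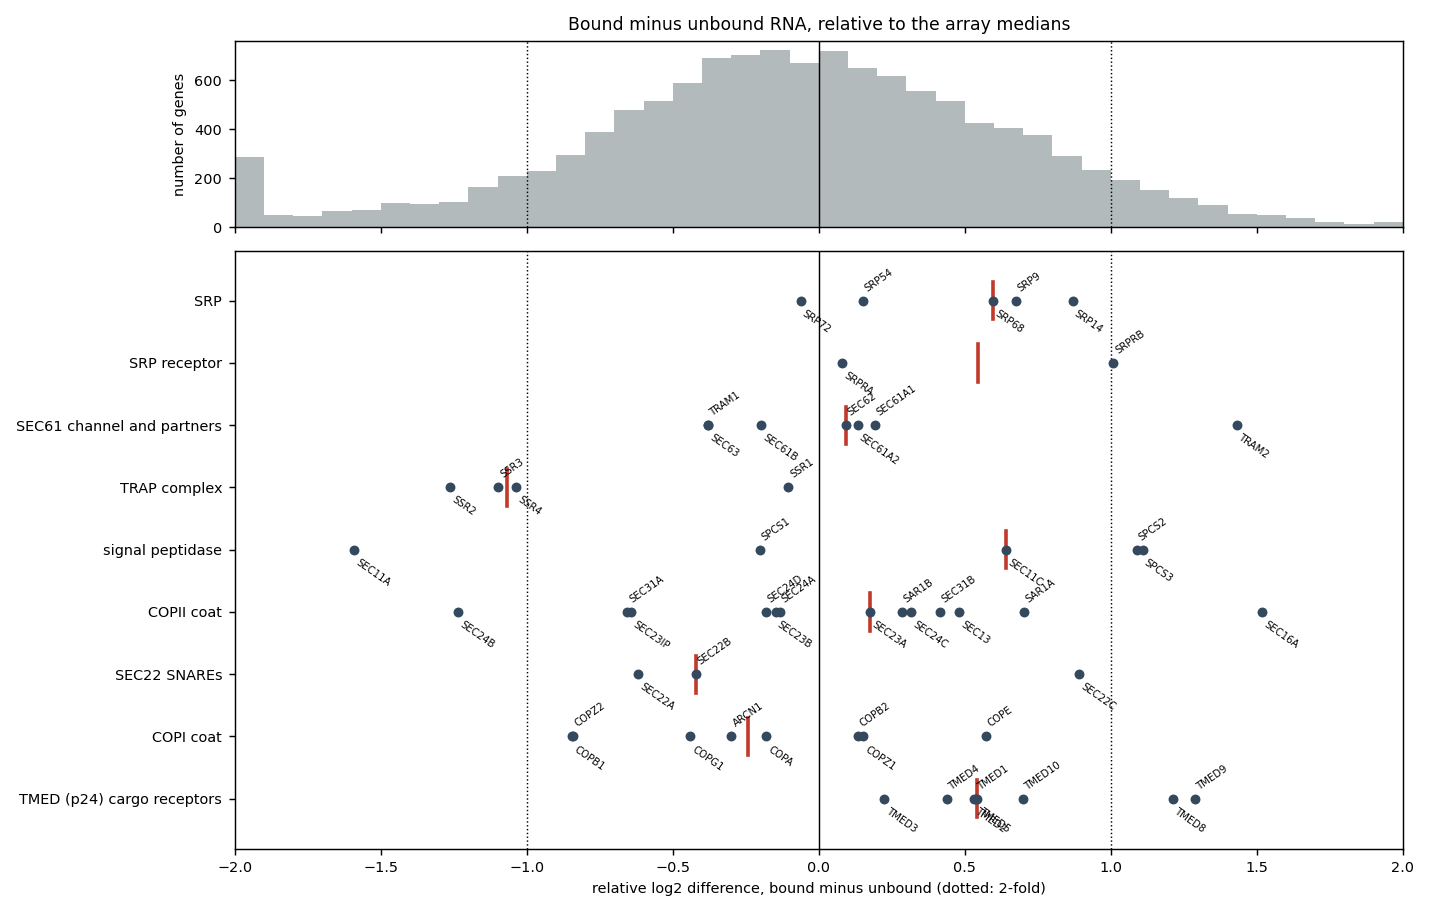
Relative log2 difference of bound minus unbound RNA (horizontal axis) for all 12064 genes past the level filter (upper panel, number of genes per bin of 0.1, with values beyond the axis added to the end bins) and for the 55 members past it, by role (lower panel; points are genes, red bars the role medians, dotted lines 2-fold). All 8 TMED genes lie to the right of 0 and all 4 TRAP genes to its left (SSR1 lies above 0 after lowess and quantile normalization), and the signal peptidase genes run from SEC11A at -1.59 to SPCS3 at 1.11.

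None of the 5 measured SRP protein genes was 2-fold apart between bound and unbound RNA in relative terms, and 4 of them lay above 0. The particle is built from a 7SL RNA and 6 proteins, and its RNA is not given a value because its probe set lists several genes. SRP14, which pairs with SRP9 in the domain that pauses translation, had log2 values of 9.76 bound, 7.62 unbound and 8.99 in total RNA, a relative bound minus unbound difference of 0.87. SRP9 had 10.96, 9.03 and 10.05, a difference of 0.67, and its other probe set gave 0.62. The partners of this heterodimer were thus close to each other. SRP68, a large subunit that binds the RNA together with SRP72, had 10.23, 8.37 and 9.65 (0.60). SRP54, the GTPase that holds the signal sequence, had 8.94, 7.53 and 8.72 (0.15), and SRP72 had 9.48, 8.28 and 9.05 (-0.06). The SRP median was 0.60, at 0.73 after lowess and 1.02 after quantile normalization. SRP9 was 2-fold higher after lowess (1.05), and SRP9 (1.40), SRP14 (1.11) and SRP68 (1.02) were after quantile normalization. Of all genes 6.37% and 10.7% were 2-fold higher under these scalings. SRP72 lay on the low side of 0 after lowess as well and on the high side after quantile normalization (0.17). Against total RNA all 5 lay below 0 in bound RNA, at a median of -0.45, and the sign of this median turned to 0.10 after lowess and 0.19 after quantile normalization. SRP19, which helps SRP54 to join the particle, was at 4.45 in bound RNA, just over background, and at 3.32 and 3.42 in unbound and total RNA, below it.

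The SRP receptor has a GTPase subunit that meets SRP, SRPRA, and a membrane anchor, SRPRB. SRPRB had 7.48 in bound, 5.20 in unbound and 6.67 in total RNA, and its relative difference of 1.01 was higher than that of 93.9% of all genes. SRPRA had 9.30, 7.96 and 8.60, with a relative difference of 0.08. The subunits of this receptor therefore lay 0.93 apart, and between 0.87 and 0.93 apart under all 4 scalings.

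Channel genes of the translocon lay near the centre, with 1 exception. SEC61A1, the pore-forming subunit, had 9.20 in bound, 7.75 in unbound and 8.85 in total RNA (relative difference 0.19), its paralog SEC61A2 had 8.27, 6.87 and 7.30 (0.13), and the small subunit SEC61B had 7.67, 6.61 and 6.84 (-0.20). SEC62 and SEC63, which serve chains that enter after their synthesis, had differences of 0.09 and -0.38. SEC63 had 10.39, 9.51 and 9.76 on the bound, unbound and total RNA arrays. TRAM1, which sits beside the channel and touches entering chains, had 9.75, 8.86 and 9.31, a difference of -0.38. TRAM2, its relative, had 7.69 in bound, 4.99 in unbound and 6.59 in total RNA. That difference of 1.43 exceeded those of 98.4% of all genes and lay 1.81 above that of TRAM1. The role median was 0.09, at 0.02 after lowess and 0.22 after quantile normalization. SEC63 was at 0.23 after quantile normalization.

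TRAP is a complex of 4 subunits, SSR1 to SSR4, that binds ribosome and SEC61 and helps some proteins to enter the ER. Its transcripts were the lowest group on the bound side, at a median of -1.07 (-0.74 after lowess, -0.51 after quantile normalization, 0.20 as deposited). SSR2 had 10.998 in bound RNA and 10.997 in unbound RNA against 10.41 in total RNA, a relative difference of -1.26. SSR3 had 8.88, 8.72 and 8.61 (-1.10), and SSR4 had 6.89, 6.67 and 6.10 (-1.04). The bound and unbound values of these 3 genes were thus nearly equal as deposited, on arrays whose medians differed by 1.26. SSR1 stood apart from its partners, at 10.16, 8.997 and 9.66 and a relative difference of -0.10, with the sign turned to 0.11 after lowess and 0.36 after quantile normalization. It lay 1.16 above SSR2, 0.99 above SSR3 and 0.93 above SSR4. The distance to SSR3 and SSR4 was 1.17 and 1.21 with the lowess trend removed, 1.30 and 1.36 with quantile normalization, and that to SSR2 shrank to 0.53 after lowess and 0.45 after quantile normalization, where SSR2 itself was at -0.42 and -0.09.

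Signal peptidase had the largest SD of any role, 1.14. Its catalytic subunit exists as the alternative proteins SEC11A and SEC11C, and SPCS1, SPCS2 and SPCS3 are its other subunits. SEC11A was the only member whose value was lower in bound than in unbound RNA as deposited, at 6.93 bound, 7.26 unbound and 6.69 in total RNA. Its relative difference of -1.59 corresponds to 3.01-fold, has 3.81% of all genes below it, and was -1.64 after lowess and -1.58 after quantile normalization. SEC11C had 7.88, 5.97 and 6.90, a relative difference of 0.64, so that the alternative catalytic subunits lay 2.23 apart. SPCS3 had 9.71, 7.34 and 8.78 (1.11), and SPCS2 had 9.52, 7.17 and 8.79 (1.09), with 1.12 from its other probe set. SPCS3 and SPCS2 lay 2.70 and 2.68 above SEC11A, and the distance was between 2.68 and 2.94 under the 4 scalings. SPCS1, with 8.33, 7.27 and 7.53, lay between them at -0.20.

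COPII genes covered 2.75 of the 3.11 log2 units between the lowest and the highest member. SEC16A, the large scaffold that marks ER exit sites, had 7.57 in bound, 4.79 in unbound and 5.92 in total RNA, a relative difference of 1.52 (2.87-fold) and the highest of all members. SAR1A, a GTPase that starts coat assembly, followed with 10.62, 8.65 and 9.41 (0.70), and its paralog SAR1B had 8.19, 6.64 and 6.77 (0.29). Of the inner coat, SEC23A had 9.48, 8.04 and 9.10 (0.18) and SEC23B 8.71, 7.59 and 8.69 (-0.15). The SEC24 paralogs, which select cargo, did not move together. SEC24C (0.32), SEC24A (-0.13) and SEC24D (-0.18; 6.82, 5.74 and 6.88 on the bound, unbound and total RNA arrays) lay near the centre, and SEC24B was apart, with 9.51 in bound, 9.48 in unbound and 8.93 in total RNA, a relative difference of -1.23. SEC24C exceeded SEC24B by 1.55, and by 1.30 and 1.27 after lowess and quantile normalization. The outer coat genes SEC13, which is also a nuclear pore subunit, and SEC31A had 0.48 and -0.66, and SEC31B had 0.41. SEC31B was at 3.95 in unbound RNA, within 1 log2 unit of background. SEC31A had 9.55 in bound, 8.95 in unbound and 9.08 in total RNA. SEC23IP, a partner of SEC23, had 9.42, 8.80 and 9.26 (-0.64). SEC16B was below background on all 3 arrays, at 3.74, 2.85 and 3.10. The COPII median was 0.18.

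The 3 SEC22 genes share a name, and SEC22B encodes a vesicle fusion protein (SNARE). SEC22C had 7.58 in bound, 5.42 in unbound and 6.17 in total RNA, a relative difference of 0.89. SEC22B, the SNARE of ER and Golgi traffic, had 9.58, 8.73 and 8.62 (-0.42), and SEC22A had 6.51, 5.86 and 5.75 (-0.62). SEC22C lay 1.51 above SEC22A, and between 1.51 and 1.54 above it under the 4 scalings.

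COPI subunits form 1 large coat complex, coatomer, and none of the 8 measured was 2-fold apart between bound and unbound RNA. COPE had 8.07 in bound, 6.23 in unbound and 7.02 in total RNA, a relative difference of 0.57. COPZ1 had 10.30, 8.89 and 9.35 (0.15), and COPB2 had 9.41, 8.01 and 9.51 (0.13). COPA (-0.18, turned to 0.15 after quantile normalization), ARCN1 (-0.30) and COPG1 (-0.44) followed below 0. The lowest were COPZ2, with 4.88, 4.46 and 4.81 (-0.84), and COPB1, with 8.97, 8.55 and 9.17 (-0.84). COPZ2 was within 1 log2 unit of background on the bound and unbound arrays. The median was -0.24, -0.13 after lowess and, with the sign turned, 0.06 after quantile normalization and 1.02 as deposited.

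TMED genes varied less among themselves than the SEC61, COPII or COPI genes did, and about as much as the SRP genes (SD 0.39). All 8 past the filter had a positive relative difference, as had 46.1% of all genes. All 8 were positive after lowess, with 49.6% of all genes, and after quantile normalization, with 58.5%. They ranged from 0.22 to 1.29 with a median of 0.54 (0.67 after lowess, 0.87 after quantile normalization) and an SD of 0.37. TMED9 had 8.73 in bound, 6.18 in unbound and 7.59 in total RNA, a difference of 1.29. TMED8, placed in this group by its symbol, had 7.46, 4.99 and 5.99 (1.21). TMED10 (10.18, 8.22 and 9.22) and TMED2 (10.42, 8.63 and 9.50), partners in the core of the TMED cargo receptor complex, had 0.70 and 0.53. TMED5 (0.54), TMED1 (0.54) and TMED4 (0.44) were near them. TMED1 was at 4.13 in unbound RNA, within 1 log2 unit of background. TMED4 had 8.73, 7.03 and 7.23 on the bound, unbound and total RNA arrays, and TMED3, the lowest, had 6.97, 5.48 and 6.08 (0.22). TMED6 was below background on all 3 arrays, at 3.61, 2.80 and 2.97.

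**Figure D3:**
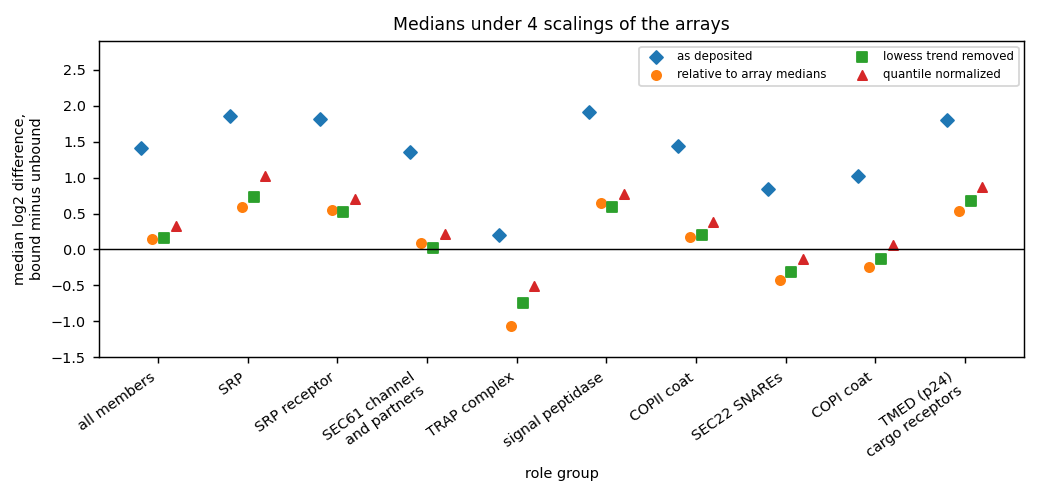
Median log2 difference of bound minus unbound RNA (vertical axis) over all 55 members and over each role group, as deposited (diamonds), relative to the array medians (circles), with the lowess trend removed (squares) and after quantile normalization (triangles). The TRAP complex is the lowest group under each scaling. The medians of all members and of SRP, its receptor, SEC61 (0.02 after lowess), signal peptidase, COPII and TMED genes stay above 0 under all 4.

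The 5′ ends of the members were read from RefSeq promoter windows of the GRCh38.p14 assembly (250 bases before the annotated start and 50 after it), which held 52 of the 58 members. Messenger RNAs that begin with a C and a run of pyrimidines (terminal oligopyrimidine or TOP mRNAs) are known to be moved in and out of polysomes together, so starts of this form are shown. A window was counted when its first transcribed base was C and the next 4 were each C or T. Of the 52 members, 5 had such a start (9.62%), against 7.41% of the 9716 genes past the level filter with a window. They were SSR2, SEC24B, SEC63 and TMED3, with a median relative difference of -0.81, and SEC16B, which was below the level filter. The sign of that median of 4 genes turned with the scaling, from -0.22 after lowess to 0.07 after quantile normalization. The other 45 members past it had a median of 0.18, and over all genes the medians were -0.41 with such a start and -0.02 without. Annotated starts can differ from those used in these cells, and only some mRNAs that begin this way behave as TOP mRNAs. The lines below give 15 bases on each side of the start, 5′ to 3′ on the strand of the gene, with the pyrimidine run from the start in capitals. SSR1, SEC11A and TMED8 have no such run and are shown for contrast.
SSR2 (chr1:156020937-156020966, minus strand): gtgcttatttccggtCTTTCggatgctgac
SEC24B (chr4:109433800-109433829, plus strand): ctccggccccgccttCCCTTCCCTCCgccc
SEC63 (chr6:107958194-107958223, minus strand): ggcgggaactatctcCTCTCgcgagagctg
TMED3 (chr15:79311097-79311126, plus strand): cactgagccgccggcCCTCCCggaagcgca
SSR1 (chr6:7313185-7313214, minus strand): cgctgcccggagcccggatgaagagtaacg
SEC11A (chr15:84716125-84716154, minus strand): cccgacccgagctccagtagttccgcccgc
TMED8 (chr14:77377080-77377109, minus strand): gctgtttccggagccactcgcggctggcag

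SSR2 and SEC24B, at -1.26 and -1.23, thus had pyrimidine starts of 5 and 11 bases, whereas TMED3, with a run of 6, was at 0.22. SEC11A, the lowest member, and SSR3 and SSR4 had no start of this form in these windows.

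Of the 52 members, 11 carried in their promoter window an element that the symbols did not select. The letters TGACGTGG, the core of the element bound by XBP1 and ATF6 in the unfolded protein response, were searched on both strands of each window. They overlap TGACG, the start of the cyclic AMP response element. The 11 members with a match (21.2%) were COPA, COPB1, COPB2, SEC16A, SEC16B, SEC23A, SEC24A, SEC62, SRP19, SSR3 and SSR4. SEC16B and SRP19 were below the level filter, so that 9 members past it had a match and 40 had none. Of the 9716 genes past the level filter with a window, 1.31% had one, and of all 35116 windows 0.73% did. TGACG alone was found in 53.8% of the members and 40.6% of those genes. The full elements ERSE (CCAAT and CCACG separated by 9 bases of any kind) and ERSE-II (ATTGG and CCACG separated by 1 base) were found in 0 of the 52 members and in 0.15% and 0.14% of those genes, and TGACGTCA in 0 members and 3.87%. A match describes the letters and was not tested for factor binding. The only matches in COPA and SEC16A lay after the start, and that in SEC23A spanned it. SEC16B and SRP19, below the level filter, had upstream sites that are not shown, nor is a further COPB2 site at or after the start. Sites upstream of the start are shown for 6 members, with up to 20 bases on each side and the element in capitals. They lie 48 bases (COPB1), 196 bases (COPB2), 179 bases (SEC24A), 17 bases (SEC62), 41 bases (SSR3) and 129 bases (SSR4) before an annotated start.
COPB1 (chr11:14499832-14499879, minus strand): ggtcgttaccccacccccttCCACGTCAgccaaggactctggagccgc
COPB2 (chr3:139389816-139389863, minus strand): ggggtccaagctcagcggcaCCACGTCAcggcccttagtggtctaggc
SEC24A (chr5:134648586-134648633, plus strand): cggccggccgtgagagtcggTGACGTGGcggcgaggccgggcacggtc
SEC62 (chr3:169966770-169966806, plus strand): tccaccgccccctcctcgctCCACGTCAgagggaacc
SSR3 (chr3:156554139-156554186, minus strand): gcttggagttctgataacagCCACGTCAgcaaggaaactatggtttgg
SSR4 (chrX:153794519-153794566, plus strand): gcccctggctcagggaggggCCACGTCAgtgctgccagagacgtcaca

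In 5 of these 6 the element reads on the opposite strand, as CCACGTCA, and in SEC24A it reads on the strand of the gene.

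Against total RNA, 4 of the 8 COPI genes and 2 of the 13 COPII genes were at least 2-fold lower in the bound pool in relative terms, whereas other coat genes lay above 0. This comparison sets polysome RNA beside the total RNA sample, from which the pools also differed in cell type markers (below). As deposited, bound RNA exceeded total RNA at least 2-fold for 11 members (40.1% of all genes) and none was 2-fold lower (0.572%). In relative terms none was 2-fold higher (2.66% of all genes) and 6 were 2-fold lower, 10.9% of members against 6.41% of all genes. These were the COPI genes COPG1 (-1.23), COPB1 (-1.22), COPB2 (-1.13) and COPA (-1.10) and the COPII genes SEC24D (-1.09) and SEC23B (-1.01). COPG1 had 7.79 in bound, 6.97 in unbound and 7.99 in total RNA, and COPA had 9.81, 8.72 and 9.88, so that their deposited bound and total values were nearly equal. The COPI median was -1.03, with COPE at 0.02 and COPZ1 at -0.07 highest (COPZ1 turned to 0.45 after lowess and 0.59 after quantile normalization). It was near 0 as deposited. After lowess and after quantile normalization it was -0.64 and -0.62, and of the 6 genes COPG1 and SEC24D were 2-fold lower under both (3.68% and 3.4% of all genes were). The COPII median was -0.56 (-0.15 and -0.10 under these scalings), with SEC16A (0.63), SAR1B (0.38) and SAR1A (0.17) above 0. Of members above background on both arrays, none was 2-fold higher under these scalings, where 3.22% and 3.27% of all genes were. The median over all members was -0.27, against -0.14 for all genes. It was 0.76 as deposited, near 0 after lowess and 0.03 after quantile normalization, so its direction depends on the scaling. SEC31B, a paralog of SEC31A, was below background in total RNA (3.70), so its difference is only bounded, and with a bound value of 5.63 it was at least 3.68-fold higher there as deposited.

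Unbound against total RNA is the counterpart, and it shares the total RNA array. As deposited, 21 members lay at least 2-fold below total RNA (38.2%, against 16% of all genes) and none was 2-fold higher (5.42%). In relative terms 8 were 2-fold lower, 14.5% of members against 9.94% of all genes, and none was 2-fold higher (8.1%). They were SPCS2 (-1.39), TRAM2 (-1.37), COPB2 (-1.27), SRPRB (-1.23), SPCS3 (-1.21), TMED9 (-1.17), SRP14 (-1.13) and SRP68 (-1.05). Of these 8, 4 remained so under each of the other 3 scalings, SPCS2, TRAM2, SRPRB and TMED9. Among all genes 7.55% were lower after lowess and 9.65% after quantile normalization. The highest were SSR2 (0.82), SEC11A (0.81), SSR4 (0.80) and SEC24B (0.78), none of them 2-fold apart except SEC24B after lowess (1.07, against 9.39% of all genes 2-fold higher after lowess and 7.34% after quantile normalization). All 5 SRP genes lay below 0, as did 54.4% of all genes, at a median of -0.96 (-0.65 after lowess, -0.73 after quantile normalization). The TRAP median was 0.57, with SSR1 at -0.43. The median over all members was -0.53, against -0.07 for all genes.

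**Figure D4:**
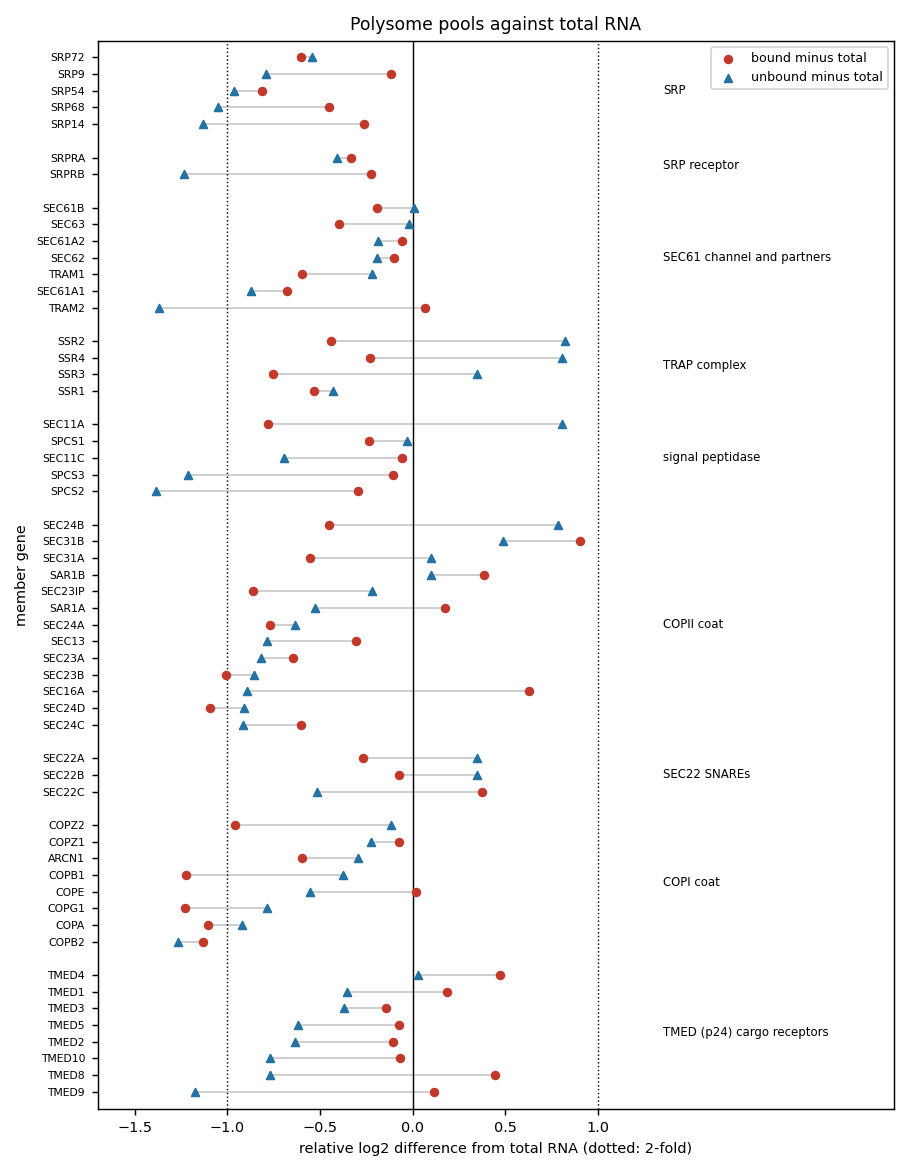
Relative log2 difference from total RNA (horizontal axis) of bound RNA (circles) and unbound RNA (triangles) for the 55 members, by role; each grey line joins the values of 1 gene, dotted lines mark 2-fold, and both series share the total RNA array. SSR2, SSR4, SEC11A and SEC24B have unbound values near 0.8 and bound values below 0, and COPA, COPB2 and COPG1 lie well below 0 in both pools.

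Total RNA was purified with another kit than the polysome pools were, and the effects of kit and RNA source on both comparisons with total RNA cannot be told apart. In RNA from a mass culture, fewer cells with a transcript and less RNA per cell cannot be told apart either. Marker lists of cell types also differed between the pools and total RNA. Of 13 pluripotency markers none was above 0 for bound minus total, with a median of -1.03, and 2 were for unbound minus total (-0.70). Of 8 trophoblast and amnion markers 7 were above 0 in both, with medians of 0.79 and 0.82. Their median log2 level was 7.12 in bound, 5.56 in unbound and 4.97 in total RNA. Of the 8, 7 exceeded background in bound RNA, 7 in unbound RNA and 6 in total RNA, and CGA was below it on all 3 arrays. Fibroblast or feeder markers had medians of -0.64 and -0.96. Of 12 germ layer markers 4 were above 0 for bound minus total, with a median of -0.42, 3 of them 2-fold higher and 2 markers 2-fold lower. The 3 higher were TTR (8.22 in bound and 3.96 in total RNA), AFP (7.08 and 3.68, the latter below background) and PAX6 (8.02 and 5.27). The 2 lower were NES (6.12 and 6.83) and GATA6 (5.31 and 5.30). For unbound minus total 6 of the 12 germ layer markers were above 0, with a median of 0.07, and 3 were 2-fold higher and 1 lower. The part of these lists in the members' differences was not tested. Between bound and unbound RNA, the medians were -0.02 for pluripotency markers, -0.15 for trophoblast and amnion markers, -0.38 for germ layer markers and 0.50 for fibroblast or feeder markers. The level filter was not applied to these lists, and 9 of the 12 germ layer markers exceeded background in bound RNA and 9 in unbound RNA. The 7 secretory cell markers, 1 of them above background, had medians of -0.65 for bound minus total and -0.58 for bound minus unbound. Negative medians thus also arise in a list mostly at background.

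Lists of other genes in the same pathway also lay on both sides between bound and unbound RNA. Of 93 such genes in 9 lists, 9 were at least 2-fold higher and 14 lower in relative terms, with a median of -0.04, where 6.33% and 9.92% of all genes were. After lowess 9 were higher and 10 lower, with a median of 0.05, and after quantile normalization 14 and 5, with a median of 0.20, so the side with more genes depends on the scaling. Of the 3 nascent chain binding genes, whose proteins share the ribosome exit with SRP, 2 were 2-fold lower, and 1 was after lowess and after quantile normalization. NACA had 11.13 in bound, 11.83 in unbound and 10.97 in total RNA (-1.96), and was at -0.90 after lowess and -0.61 after quantile normalization. BTF3L4, the highest of the 3, had 10.19, 9.43 and 9.54 (-0.50), at -0.20 after lowess and, with the sign turned, 0.06 after quantile normalization. The ER membrane protein complex, an insertase, had 3 of 10 genes higher and 1 lower, from EMC1 (1.29) to EMC9 (-1.04). Oligosaccharyltransferase, which adds sugar chains beside the channel, had 1 of 11 higher, MAGT1 (1.02), and 2 lower, of which TMEM258 (-1.37) was lowest. The median of this list was -0.05, and its sign turned to 0.53 after lowess and 0.86 after quantile normalization. After lowess 1 gene was higher and 1 lower, with MAGT1 at 0.97, and after quantile normalization 3 were higher and 1 lower. The pathway for tail-anchored proteins had 1 of 6 lower, CAMLG (-1.71), its receptor subunit in the ER membrane, with GET4 (0.70) highest. None of the 5 multipass translocon genes was 2-fold apart, from TMEM147 (0.94) to WDR83OS (-0.40).

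On the export side, cargo receptors and COPII partners had 3 of 20 higher and 3 lower, from SURF4 (1.22), a receptor for soluble cargo, to ERGIC3 (-1.93). ERGIC3 had 10.34 in bound and 11.01 in unbound RNA, and its relative value was -1.23 after lowess and -0.98 after quantile normalization. COPI partners had 1 of 8 higher, the GTPase ARF4 (1.09), and none lower, with ARFGAP3 (-0.50) lowest. ER and Golgi SNAREs and tethers had a median of -0.48, with 1 of 13 higher and 2 lower. YKT6 (1.67) was highest and NBAS (-1.08) lowest. Clathrin coat genes, of a later step in traffic, had none of 17 higher and 3 lower, from CLTB (0.80) to AP3M1 (-1.08). For bound minus total RNA, none of the 93 genes was 2-fold higher and 7 were lower, led by the clathrin heavy chain CLTC (-1.55), where 2.66% and 6.41% of all genes were. The number lower was 2 after lowess and 1 after quantile normalization. For unbound minus total RNA 4 were higher and 16 lower, led by EMC1 (-2.40), where 8.1% and 9.94% of all genes were. After lowess these counts were 9 and 10, and after quantile normalization 4 and 14.

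Level and gene size were weakly related to the bound minus unbound difference among the members. Across the 55 genes the Spearman correlation was -0.23 with the mean log2 level and -0.18 with the log2 genomic span in RefSeq, against 0.10 and 0.25 across all genes. These points share the arrays, and genes are not independent replicates.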

How the data were processed

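Each of the 3 samples was hybridised to 1 Affymetrix array. The table holds log2 values that the authors deposited, and per the submitters' processing notes they were made with Partek 6.5 and RMA. The columns have different distributions, so it is not known how the arrays were scaled to each other. All 33297 bound values end in the same 2 decimals and have 7 decimals, against at most 5 in the other columns, as if a constant had been added. Relative differences do not depend on it. Separation of polysomes and pooling of cultures are not described in the labels. Groups follow the sample type in the labels.

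Genes were named from GEO's platform annotation: 19460 probe sets list 1 symbol, 1754 several and 12083 are not listed, and only the first kind was used. For genes with several probe sets the one with the highest mean was kept. All 58 members matched the RefSeq table of GRCh38.p14. Differences are of 1 array minus another, a gene counts as apart at 2-fold, and there is no test with 1 array a group. Array precision is limited by signal over background. Members and lists were chosen with earlier results of these data known. Named genes are all members, with values on 3 arrays for the 2 highest and 2 lowest of each role and for those 2-fold apart between bound and unbound RNA, and the highest and lowest gene of each other list. Some further members are given with all 3 values, and CLTC and markers were named after their values were seen. The promoter motifs were chosen after the files were seen. Alternatives were other filters, scalings (lowess span 0.3), probe set rules and thresholds. Scripts were tested on simulated data. Python 3.11.15, numpy 2.4.6, pandas 2.3.3, scipy 1.17.1, statsmodels 0.14.6 and matplotlib 3.10.9 were used.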

Additional observations from a re-analysis of the deposited data

How the results depend on the processing

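No paired analysis was possible because each group has 1 array and the labels give no replicate numbers. Without the level filter, with the filter at the 99th percentile of tissue-restricted genes, with the mean of all probe sets and with genes of 1 probe set, the counts of members 2-fold apart stayed within 1.5 times those reported and the medians moved by less than 0.1. As deposited, bound minus unbound had 40 members higher, 0 lower and a median of 1.41, bound minus total 11, 0 and 0.76, and unbound minus total had 21 lower and a median of -0.76. As deposited, the sign turned for 22 of 55 members in bound minus unbound, 39 in bound minus total and 4 in unbound minus total. Those of them that were 2-fold apart in relative terms were SEC24B (0.028), SSR2 (0.0011), SSR3 (0.17) and SSR4 (0.23) for bound minus unbound. For bound minus total it was SEC23B (0.023). After quantile normalization, bound minus unbound had 13 higher, 1 lower and a median of 0.33, and bound minus total had 1 higher, 2 lower and a median of 0.032. After lowess, bound minus total had 1 higher, 2 lower and a median of -0.00019 (the 1 higher is SEC31B both times, below background in total RNA), and unbound minus total 1 higher, 4 lower and a median of -0.35. At 1.5-fold, the counts higher and lower were 14 and 10 for bound minus unbound, 2 and 18 for bound minus total and 4 and 25 for unbound minus total. At 3-fold they were 0 and 1, and no member was lower (0) in either comparison with total RNA. The scaling and the threshold alone set these changes, since the same 55 genes enter. The planned relation to protein length was not run, because no protein table was used here. Precision is limited by 1 array per source.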
